A study of Mus musculus with 16 samples.

Results

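The subunits of Polycomb repressive complex 2 (PRC2) were examined in nuclei of the mouse dentate gyrus (DG). The 10 genes were taken by symbol from the 32285 genes counted in all 8 libraries. They are *Ezh1*, *Ezh2*, *Suz12*, *Eed*, *Rbbp4*, *Rbbp7*, *Jarid2*, *Mtf2*, *Phf19* and *Phf1*. The rule used symbols and no measured value. The study profiled gene expression and chromatin accessibility in single nuclei of mice with or without a missense allele of *Nrg1*, Val to Leu, named V321L. Both groups held 2 females and 2 males, and each mouse gave 1 library. WT mice carried 2 copies of the valine allele (VV), and V321L mice carried 2 copies of the leucine allele (LL). The allele was present in every cell of the animal from conception, so no class of cells in a V321L mouse served as an unaffected control. The labels name no other allele and no drug. The age of each mouse is not in the sources used here. The DG was microdissected and frozen, and nuclei went into a joint RNA and ATAC assay.

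PRC2 places methyl groups on lysine 27 of histone H3, a mark of silenced genes. EZH2 and its close relative EZH1 are the alternative catalytic subunits. EZH2 is the main form in dividing progenitors, whereas EZH1 is retained in cells that have left the cycle. SUZ12 is the scaffold, EED reads the methyl mark and stimulates the enzyme, and RBBP4 and RBBP7 are histone-binding proteins that also serve other chromatin complexes. Each core complex takes accessory subunits of one of a pair of kinds, either JARID2 with AEBP2 or one of the Polycomb-like proteins PHF1, MTF2 and PHF19. In neurons PRC2 is known for keeping genes of other lineages and of cell death silent.

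The promoters of the pair of catalytic genes and of *Suz12* and *Jarid2* are shown as examples, while the ATAC counts at the same start sites served as a second readout. The other promoters, those of *Mtf2* among them, are counted below and not printed. The 250 bases before the annotated start were taken from RefSeq (GRCm38.p6, which is mm10) and are written 5′ to 3′ on the strand of the gene. Capitals mark CCAAT or its reverse complement ATTGG, the core of an element bound by the factor NF-Y. The *Ezh1* promoter lies at chr11:101226464-101226713 on the minus strand and that of *Ezh2* at chr6:47595031-47595280 on the minus strand. The *Suz12* promoter lies at chr11:79992856-79993105 on the plus strand, and that of *Jarid2* at chr13:44730524-44730773 on the plus strand.
Ezh1: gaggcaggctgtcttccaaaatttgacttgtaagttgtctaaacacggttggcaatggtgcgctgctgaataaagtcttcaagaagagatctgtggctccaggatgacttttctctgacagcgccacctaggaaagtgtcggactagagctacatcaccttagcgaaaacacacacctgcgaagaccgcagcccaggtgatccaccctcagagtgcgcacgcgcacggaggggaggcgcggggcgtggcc
Ezh2: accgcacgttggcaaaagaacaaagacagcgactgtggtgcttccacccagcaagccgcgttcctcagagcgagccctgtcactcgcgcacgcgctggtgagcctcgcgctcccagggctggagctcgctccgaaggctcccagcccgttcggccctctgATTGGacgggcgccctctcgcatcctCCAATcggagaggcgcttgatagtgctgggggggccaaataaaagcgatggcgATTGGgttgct
Suz12: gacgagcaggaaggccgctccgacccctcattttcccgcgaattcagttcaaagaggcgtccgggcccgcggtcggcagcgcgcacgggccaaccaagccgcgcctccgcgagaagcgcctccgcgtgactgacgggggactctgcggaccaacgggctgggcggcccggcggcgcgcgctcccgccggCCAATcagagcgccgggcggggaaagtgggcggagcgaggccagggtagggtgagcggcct
Jarid2: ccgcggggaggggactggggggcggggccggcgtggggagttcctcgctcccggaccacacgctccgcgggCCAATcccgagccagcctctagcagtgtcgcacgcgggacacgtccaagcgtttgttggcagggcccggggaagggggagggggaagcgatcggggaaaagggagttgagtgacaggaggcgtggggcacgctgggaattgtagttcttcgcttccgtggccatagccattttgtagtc
The *Ezh2* stretch held 3 matches, *Suz12* and *Jarid2* held 1 each, and *Ezh1* held 0. All 10 genes had an entry, with 12 promoters in all, because *Mtf2* and *Jarid2* had 2 each. The motif was searched on both strands, and 6 of the 12 promoters held it, against 33.8% of 32851 RefSeq promoters of the same length. The GC box GGGCGG, which does not overlap CCAAT in its letters, was found in 8 of the 12 against 32.7% of all. GC content ran from 46.8% to 76.4% among the 12, against a median of 52.4% over all promoters. A match is a stretch of letters and was not tested as a binding site.

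After quality limits, 16305 nuclei remained, 9387 from WT and 6918 from V321L mice, and 161 barcodes occurred in more than 1 library. A gate on marker genes named 9454 nuclei as granule cells (GCs), with 775 to 2104 per mouse. No PRC2 gene was among the markers. Of the 8 GC markers, 6 were highest in this class among all classes. *Prox1* was higher in neuroblasts and *Smad3* in microglia. The GCs held 1397296 to 5471768 unique molecular identifiers (UMIs, counted RNA molecules) per mouse. The genotypes differed in library quality without overlap between mice. The median GC nucleus held 1188 to 2129.5 UMIs in WT and 3279 to 4651.5 in V321L libraries. The median mitochondrial share was 0.0665 to 0.135% in WT and 0.299 to 1.08% in V321L GCs, and ribosomal protein genes took 0.0995 to 0.165% and 0.869 to 1.80% of the GC UMIs. The share of nuclei that passed no marker gate was 16.9 to 34.3% in WT and 3.54 to 12.1% in V321L libraries. Pearson's r between the summed GC profiles of 2 mice ran from 0.758 to 0.982 over the 28 pairs. It was 0.956 to 0.982 within a genotype and 0.758 to 0.866 between genotypes. The effect of genotype and these differences between libraries cannot be told apart by this design. Whether the WT mice, or the V321L mice, shared a litter or a day of preparation is not in the sources used here, so *P* values measure the spread between these 8 mice.

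The first comparison asked which PRC2 subunits differed between V321L and WT GCs. UMIs were summed over the GCs of each mouse and scaled to CPM (counts divided by the library total and brought to a common scale) with TMM factors, which line up the bulk of genes between samples. Of the 10 subunits, 8 passed the filter on low counts, and 5 of these were called at an adjusted *P* under 0.05 by edgeR's quasi-likelihood test with Benjamini-Hochberg adjustment, 1 higher and 4 lower in V321L. The background was high, and 70.4% of the 12150 genes tested were called, 38.9% higher and 31.5% lower. Thus 5 of 8 is near the share of genes at large. In 7 of the 8, all but *Eed*, the genotypes did not overlap in TMM CPM, 3 higher and 4 lower in V321L, which also held for 62.3% of all genes (34% higher, 28.3% lower). The median log2 fold change was -0.16 over the 8 subunits and 0.12 over all genes tested. *Jarid2*, *Mtf2*, *Suz12* and *Ezh2* were the subunits called lower, and *Rbbp4* was the one called higher.

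**Figure D1:**
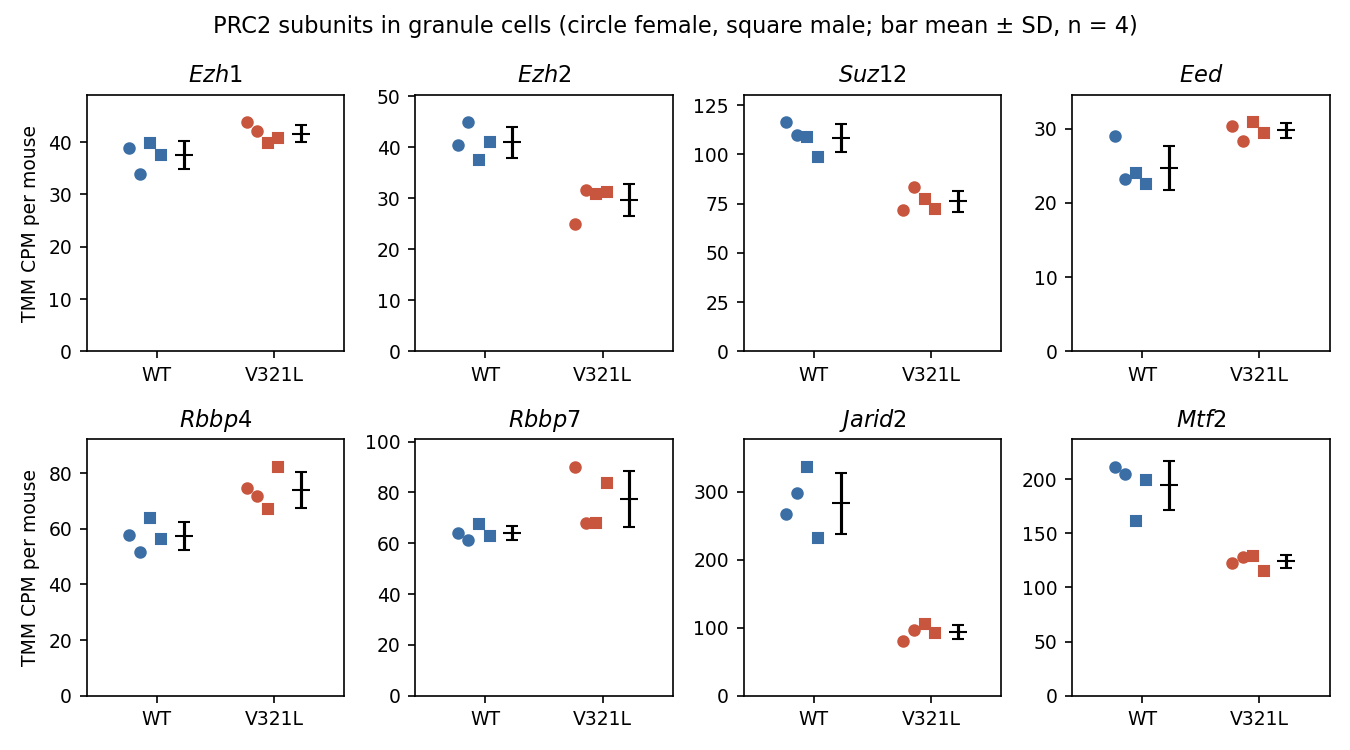
RNA of the 8 tested PRC2 subunits in GCs, in TMM CPM on a linear axis from 0, with 1 point per mouse (circles female, squares male) and the mean ± SD of 4 mice. V321L points lie below all WT points for *Ezh2*, *Suz12*, *Jarid2* and *Mtf2*, and above them for *Ezh1*, *Rbbp4* and *Rbbp7*; these orders hold for TMM scaling, and those of *Ezh2* and *Suz12* are lost with library sizes.

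The catalytic genes moved apart. *Ezh2* stood at 40.4, 44.8, 37.6 and 41.0 TMM CPM in the WT mice F1, F2, M1 and M2, and at 25.0, 31.7, 30.8 and 31.2 in the V321L mice of the same labels. Every V321L mouse was below every WT mouse, and the means were 41.0 ± 2.99 and 29.7 ± 3.13 (SD, n = 4 each). The log2 fold change was -0.47 (SE 0.13, edgeR adjusted *P* = 0.00512), or -0.59 relative to the median of all genes. With plain library sizes this difference was -0.02 (adjusted *P* = 0.918), and it was 0.05 when ribosomal protein, mitochondrial and nuclear-retained RNAs were left out of the library size. The call was also lost in males alone (-0.37, adjusted *P* = 0.227) and without the filter on low counts (-0.37, adjusted *P* = 0.0607). *Ezh1* stood at 38.9, 33.9, 39.8 and 37.6 TMM CPM in WT and at 43.8, 42.2, 39.9 and 40.7 in V321L mice. The genotypes did not overlap, although WT M1 and V321L M1 were nearly level. Its log2 fold change of 0.16 (SE 0.12) did not pass the test with TMM (adjusted *P* = 0.241) and did with library sizes (0.61, adjusted *P* = 0.00142). Thinning each nucleus to 1000 UMIs gave -0.04.

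A ratio of the UMIs of both genes in the same nuclei does not depend on the scaling. GCs of WT mice held 0.961, 0.755, 1.06 and 0.915 *Ezh1* UMIs per *Ezh2* UMI, and those of V321L mice held 1.75, 1.33, 1.29 and 1.31. The lowest V321L ratio lay above the highest WT ratio. The ratio compares mice and not the abundance of the genes, since no transcript length entered it. The counts behind it were 371 *Ezh1* and 418 *Ezh2* UMIs in WT and 765 and 546 in V321L GCs. The share of other gene pairs whose ratio parts the genotypes was not computed. Gene length moved with genotype across all genes, as described below, and *Ezh2* spans 64997 bases against 35349 for *Ezh1*. Against genes of like length the log2 fold change with TMM was 0.07 for *Ezh1* and -0.11 for *Ezh2*. Neither gene was called once the trend with length was removed.

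Among the core subunits without catalytic activity, *Suz12* fell under TMM. Its levels were 116, 110, 109 and 98.8 TMM CPM in WT mice and 71.8, 83.3, 77.3 and 72.2 in V321L mice, with no overlap. The means were 108 ± 7.21 and 76.2 ± 5.39 (SD, n = 4 each), with a log2 fold change of -0.51 (SE 0.10, edgeR adjusted *P* = 0.000585), while library sizes gave -0.06 (adjusted *P* = 0.63) and library sizes without ribosomal protein, mitochondrial and nuclear-retained RNAs gave 0.0079. Males alone gave -0.49 (adjusted *P* = 0.066). *Eed* stood at 24.7 ± 2.94 TMM CPM in WT and 29.8 ± 1.07 in V321L GCs. The highest WT mouse, F1 at 29.0, exceeded the lowest V321L mouse, F2 at 28.4, which made *Eed* the one tested subunit whose genotypes overlapped. Its log2 fold change of 0.27 (SE 0.14) gave an edgeR adjusted *P* of 0.0972, against 0.72 and an adjusted *P* of 0.000781 with library sizes.

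The histone-binding subunits lay higher in V321L GCs. *Rbbp4* rose from 57.4 ± 5.07 to 74.0 ± 6.33 TMM CPM (SD, n = 4 each), with a log2 fold change of 0.38 (SE 0.11, edgeR adjusted *P* = 0.00908). The WT mice held 51.6 to 63.9 and the V321L mice 67.3 to 82.3 TMM CPM. The call was lost without WT F2 (0.29, adjusted *P* = 0.055). It was also lost with DESeq2, with upper quartile scaling, in females or males alone, with nuclei thinned to 1000 UMIs, with a mitochondrial share under 0.5% and with the trend with gene length removed (0.17 to 0.39, adjusted *P* = 0.0546 to 0.289). *Rbbp7* stood at 64.0, 61.3, 67.6 and 62.9 in WT and 90.1, 68.0, 68.0 and 83.5 in V321L mice. V321L F2 and M1 lay just above the highest WT mouse, and the other two stood apart. The log2 fold change was 0.28 (SE 0.12, edgeR adjusted *P* = 0.0551) with TMM, 0.72 (adjusted *P* = 0.000368) with library sizes, and -0.23 (adjusted *P* = 0.0851) once the trend with gene length was removed. It passed with TMM without V321L F2 (0.35) or V321L M1 (0.34).

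With TMM the accessory genes *Jarid2* and *Mtf2* gave the largest differences among the tested subunits. With library sizes this held for *Jarid2* and not for *Mtf2*. *Mtf2*, a Polycomb-like subunit that helps to bring the complex to CpG-rich DNA, stood at 212, 205, 162 and 199 TMM CPM in WT mice and at 123, 128, 129 and 116 in V321L mice. WT M1 was the lowest WT mouse, and still above all V321L mice. The log2 fold change was -0.65 (SE 0.11, edgeR adjusted *P* = 8.09e-05) with TMM and -0.20 (adjusted *P* = 0.0554) with library sizes. *Phf1* and *Phf19*, the other Polycomb-like genes, were too low to test: *Phf19* had 0 UMIs in WT and 4 in V321L GCs, and *Phf1* had 4 and 35. For *Phf19* a count of 0 allowed up to 3 UMIs over the WT GCs, so its absence was not detectable at this depth.

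*Jarid2*, which brings PRC2 to its sites and tunes its activity, had the largest fold change of the tested subunits. It stood at 267, 297, 337 and 231 TMM CPM in the WT mice F1, F2, M1 and M2 and at 80.8, 97.1, 105 and 92.5 in the V321L mice. The lowest WT mouse was above the highest V321L mouse by more than the whole spread of the V321L group. The means were 283 ± 44.8 and 93.9 ± 10.2 (SD, n = 4 each), with a log2 fold change of -1.59 (SE 0.13, edgeR adjusted *P* = 2.35e-07) with TMM and -1.15 (adjusted *P* = 9.06e-06) with library sizes, but of 0.74 (adjusted *P* = 0.411) after an estimate of free RNA was taken off. The direction thus turned under the one setting that used counts from outside the nuclei. That subtraction left WT F1 and WT M1 without any *Jarid2* counts.

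Those counts came from barcodes with 100 UMIs or fewer, which were taken, without a test, to hold mostly RNA free in the droplets. *Jarid2* reached 1247, 958, 2521 and 1132 CPM there in the WT libraries F1, F2, M1 and M2. In the V321L libraries it reached 21.1, 27.7, 27.3 and 23.7 CPM. The values rested on 655 to 1276 *Jarid2* UMIs per WT library and 65 to 77 per V321L library. The means were 1464 ± 714 and 25.0 ± 3.12 CPM (SD, n = 4 each), a 58.7-fold difference, rank 7 among 10157 genes with at least 100 UMIs in these barcodes. The median fold over those genes was 1.19. Within a WT library *Jarid2* was 4.22 to 7.86 times as high in low-count barcodes as in GCs, on the CPM scale without TMM factors. Within a V321L library it was 0.219 to 0.242 times as high.

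**Figure D2:**
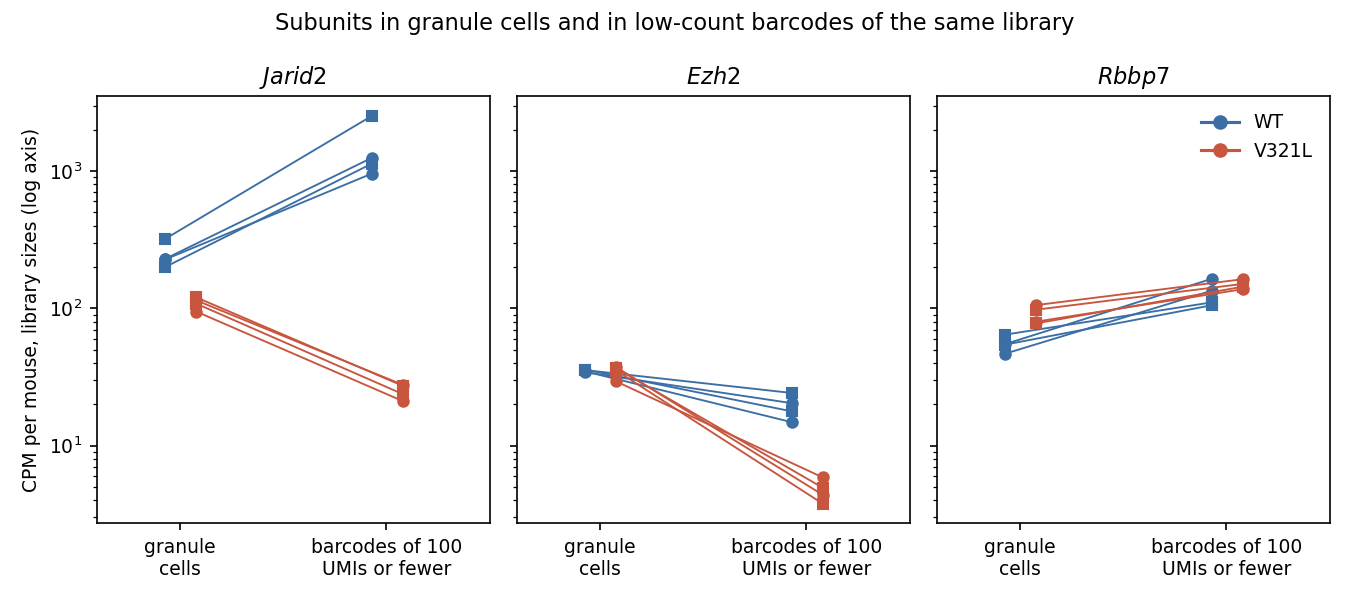
CPM by library size (log axis) of *Jarid2*, *Ezh2* and *Rbbp7* in GCs and in barcodes with 100 UMIs or fewer, with 1 line per mouse, blue for WT and red for V321L. *Jarid2* rises from left to right in the 4 WT libraries, to 958 CPM or more, and falls in the 4 V321L libraries, to 27.7 CPM or less; *Ezh2* falls in all 8, and *Rbbp7* rises in all 8.

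The ratio of low-count barcodes to GCs was higher in WT than in V321L libraries, without overlap, for every tested subunit but *Rbbp7*. The share of all genes for which this held was not computed. *Ezh1* stood at 0.729 to 1.45 times the GC level in WT libraries (median 1.25) and 0.469 to 0.624 times in V321L libraries. *Suz12* stood at 0.666 to 1.01 times in WT and 0.277 to 0.413 times in V321L libraries, and *Eed* at 0.518 to 0.884 and 0.369 to 0.438 times. *Ezh2* was lower in low-count barcodes than in GCs in all 8 libraries, at 0.426 to 0.682 times the GC level in WT and 0.107 to 0.20 in V321L libraries. *Mtf2* was also lower throughout, at 0.348 to 0.539 and 0.148 to 0.207 times. *Rbbp4* and *Rbbp7* were higher in all 8, at 1.63 to 2.40 and 1.72 to 2.99 times in WT and at 1.03 to 1.14 and 1.54 to 1.85 times in V321L libraries. If free RNA made up the share of GC UMIs estimated for each library (11.5 to 23.4% in WT, 6.93 to 13.9% in V321L), it would account for 48.7 to 184% of the GC *Jarid2* UMIs in WT and 1.68 to 3.06% in V321L libraries. A value over 100% means that the estimate exceeds what was counted. After the same subtraction 6 of the 8 subunits were called, 3 higher and 3 lower, against 68.8% of all genes (42% higher, 26.8% lower). *Ezh2* (-0.43), *Suz12* (-0.40) and *Mtf2* (-0.63) were called lower on the log2 scale, and *Ezh1* (0.33), *Rbbp4* (0.69) and *Rbbp7* (0.68) higher. The median of the 8 was 0.32, and that of all genes 0.28.

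Depth was examined on the same nuclei. In GCs with at least 2000 UMIs *Jarid2* stood at 208 to 320 CPM by library size in WT and 95.4 to 121 CPM in V321L mice, a selection made after the data were seen. Such a nucleus held on average 0.755 to 0.890 *Jarid2* UMIs in WT and 0.355 to 0.568 in V321L mice. The genotypes did not overlap on either measure. Among these nuclei 5 of the 8 subunits were again called, 1 higher and 4 lower, against 69.1% of all genes (39.9% higher, 29.2% lower). The part that free RNA has in the *Jarid2* values was not tested beyond the subtraction.

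**Figure D3:**
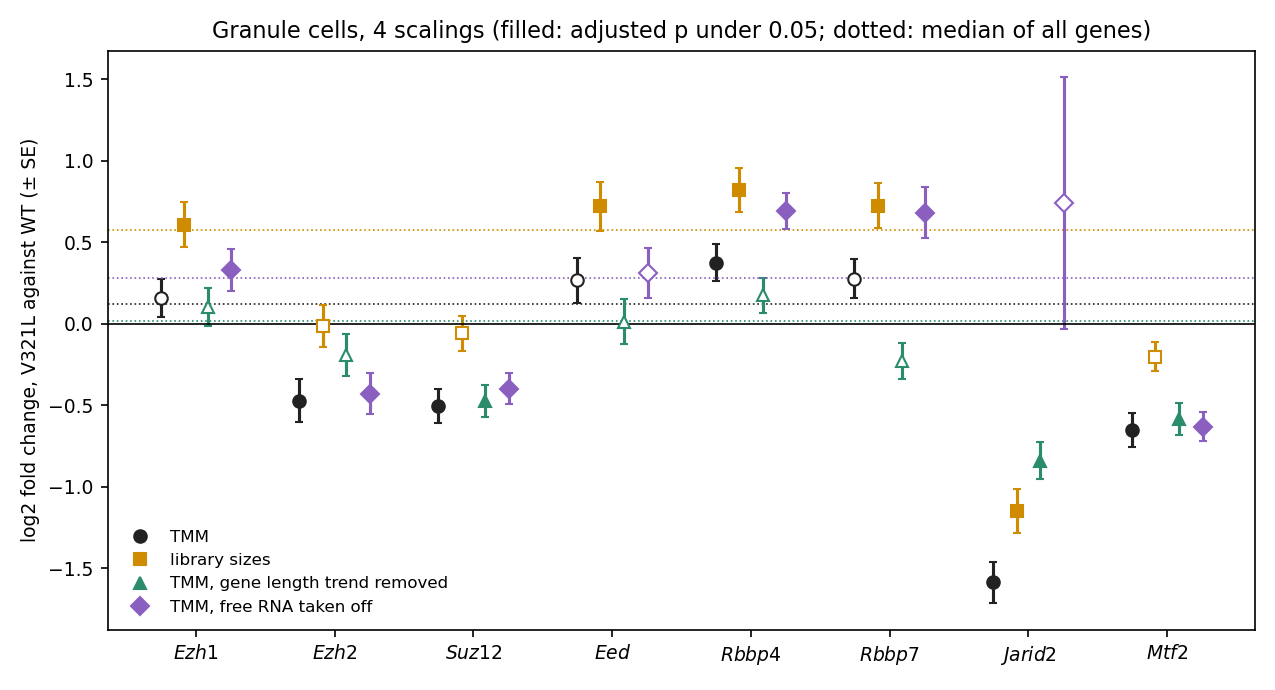
Log2 fold change of V321L against WT GCs (points ± SE) for the 8 tested subunits under 4 settings, with filled symbols for an edgeR adjusted *P* under 0.05 and dotted lines for the median of all genes in each setting. *Jarid2* lies at -1.59, -1.15 and -0.84 in the TMM, library-size and length settings and at 0.74 after subtraction of free RNA, while *Ezh2* and *Suz12* are near 0 with library sizes. The subtraction set *Jarid2* to 0 in WT F1 and WT M1.

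The scaling decided which subunits were called. Library sizes moved the median of all genes from 0.12 to 0.58, and 71.8% of genes were called, 54.6% higher and 17.2% lower. With them *Ezh1*, *Eed*, *Rbbp4* and *Rbbp7* were called higher and only *Jarid2* lower, so that 5 subunits were again called but with *Jarid2* and *Rbbp4* alone in common with TMM. Relative to the median of all genes under TMM, *Jarid2* stood at -1.71, *Mtf2* at -0.77, *Suz12* at -0.63, *Ezh2* at -0.59, *Ezh1* at 0.04, *Eed* at 0.15, *Rbbp7* at 0.16 and *Rbbp4* at 0.25. The order of the 8 was the same with either scaling, so the choice of scaling shifted the whole set.

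Fold changes also ran with gene length over all genes. Of the genes tested, 94.65% had a RefSeq length. Over 10 bins of equal number, the median log2 fold change in the bin of the shortest genes, 394 to 5200 bases long, was 2.35, and in the bin of the longest, from 155819 bases on, it was -0.98. The subunits span 18719 (*Rbbp7*) to 190870 bases (*Jarid2*). Against the median of genes in the same bin, *Jarid2* stood at -0.61, *Mtf2* at -0.51, *Suz12* at -0.36 and *Rbbp7* at -0.32, *Ezh2* at -0.11, *Eed* at -0.06, *Ezh1* at 0.07 and *Rbbp4* at 0.29. When the trend with length was removed, which was added once the data were known, 54% of genes (26.8% lower) and 3 of 8 subunits were called, all 3 lower. These were *Jarid2* (-0.84), *Mtf2* (-0.59) and *Suz12* (-0.47), whereas *Ezh2* stood at -0.19 (edgeR adjusted *P* = 0.22). Thus the call on *Ezh2* and the direction of *Rbbp7* depended on the treatment of length.

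The second comparison put the same question to the other classes of cells. The 6 classes with at least 10 nuclei in every mouse were other excitatory neurons (995 nuclei), GABAergic neurons (364), oligodendrocytes (854), oligodendrocyte precursors (274), astrocytes or radial glia (986) and microglia (352). In these, 6 of 24 tests of a subunit passed. The share of all genes called in the same fits was 44.8% in other excitatory neurons, 34.5% in GABAergic neurons, 56% in oligodendrocytes, 26.1% in oligodendrocyte precursors, 51.8% in astrocytes or radial glia and 39% in microglia. *Jarid2* was called lower in V321L nuclei of 4 of the 6 classes, where the share of genes called lower was, in the order above, 21.4%, 15.2%, 26.9%, 11.3%, 22.6% and 19.5%.

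*Jarid2* in other excitatory neurons stood at 325, 415, 371 and 346 TMM CPM in WT and at 149, 146, 116 and 126 in V321L mice, a log2 fold change of -1.45 (SE 0.16, edgeR adjusted *P* = 0.000142). In oligodendrocytes the WT mice held 297 to 439 and the V321L mice 103 to 186 TMM CPM (-1.34, adjusted *P* = 0.000302). In astrocytes or radial glia the ranges were 293 to 431 and 169 to 212 (-0.98, adjusted *P* = 0.000471). In these classes no V321L mouse reached the lowest WT mouse. GABAergic neurons had a log2 fold change of -1.14 (adjusted *P* = 0.00789) with overlap, since WT M2 at 112 fell among V321L mice at 71.3 to 136. Oligodendrocyte precursors (-0.73, adjusted *P* = 0.0694) and microglia (-0.86, adjusted *P* = 0.109) did not pass with TMM and passed with library sizes (adjusted *P* = 0.0114 and 0.0478). They also passed with TMM when 1 mouse was left out, the precursors without WT M1 (-0.81) or WT M2 (-0.90) and the microglia without WT M2 (-1.23). The low-count barcodes that held much *Jarid2* RNA in WT libraries are shared by all classes of a library, and their part in these differences was not tested.

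Besides *Jarid2*, calls were made in oligodendrocytes alone. *Rbbp4* was higher there (65.3 ± 30.6 against 109 ± 28.2 TMM CPM, log2 fold change 0.93, edgeR adjusted *P* = 0.0443) and *Mtf2* lower (96.2 ± 24.5 against 53.0 ± 13.9, -0.96, adjusted *P* = 0.0205). Both pairs of groups overlapped, WT M1 being the WT mouse nearest to the V321L mice in each. The *Rbbp4* call was lost without WT F2, WT M2, V321L F1 or V321L M1 (0.61 to 0.97), and the *Mtf2* call without WT M2, V321L F1 or V321L F2 (-0.86 to -0.75). Both were also lost with DESeq2 and with the replicate label as a block (adjusted *P* = 0.0523 to 0.0906). With library sizes 10 of the 24 tests passed, where 43.8%, 33.7%, 55.8%, 37%, 51.6% and 41.5% of all genes were called in the same order of classes, which added the *Jarid2* calls above and *Eed* (1.18, adjusted *P* = 0.0143) and *Rbbp4* (0.77, adjusted *P* = 0.0123) in other excitatory neurons. *Ezh2* could be tested outside GCs only in astrocytes or radial glia, where it was 53.9 ± 13.9 in WT and 50.9 ± 23.4 TMM CPM in V321L mice.

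The third comparison set GCs against each class within the same mice, with the mouse as a block. This comparison did not test genotype, and it drew on mice of both. Of 51 tests 25 passed with TMM, 19 with GCs higher and 6 with GCs lower. With library sizes 22 passed, 10 higher and 12 lower, and with DESeq2 20 passed, 10 higher and 10 lower, so the excess of higher calls held for TMM alone among these 3. With TMM the share of all genes called higher in GCs was 18.8% against other excitatory neurons, 21.4% against GABAergic neurons, 22.2% against oligodendrocytes, 24.3% against oligodendrocyte precursors, 22.2% against astrocytes or radial glia and 26.2% against microglia. With TMM the calls by class were 8 of 9 tested subunits against GABAergic neurons (34.9% of all genes called), 5 of 9 against other excitatory neurons (33.9%), 5 of 8 against oligodendrocyte precursors (36.3%), 3 of 8 against oligodendrocytes (38.3%), 3 of 9 against astrocytes or radial glia (42.4%) and 1 of 8 against microglia (39.5%). With library sizes, in that order, 3, 3, 2, 1, 1 and 0 subunits were called higher in GCs. In the same order 1, 2, 2, 2, 4 and 1 were called lower, and GABAergic neurons no longer had the largest share. With library sizes 32.7%, 35.6%, 31.1%, 36.2%, 39.6% and 32.5% of genes were called in the same order, and 14.8%, 19.9%, 12.6%, 16.7%, 16.1% and 11.5% were called higher in GCs. They took away 9 of the 25 calls and added 6, each given with its gene, and DESeq2 took away 9 and added 4. The calls were also counted in the mice of each genotype alone. WT mice alone gave 7 of 48 (14.7 to 28.1% of all genes called), which lost 18 of the 25 and added 0. V321L mice alone gave 21 of 54 (22.3 to 41.4%), which lost 8 and added 4. These counts do not test an effect of genotype, since each fit held fewer mice and class sizes differed. Microglia, for example, numbered 87 in WT and 265 in V321L mice. Which calls held in each genotype is not given with the genes below.

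**Figure D4:**
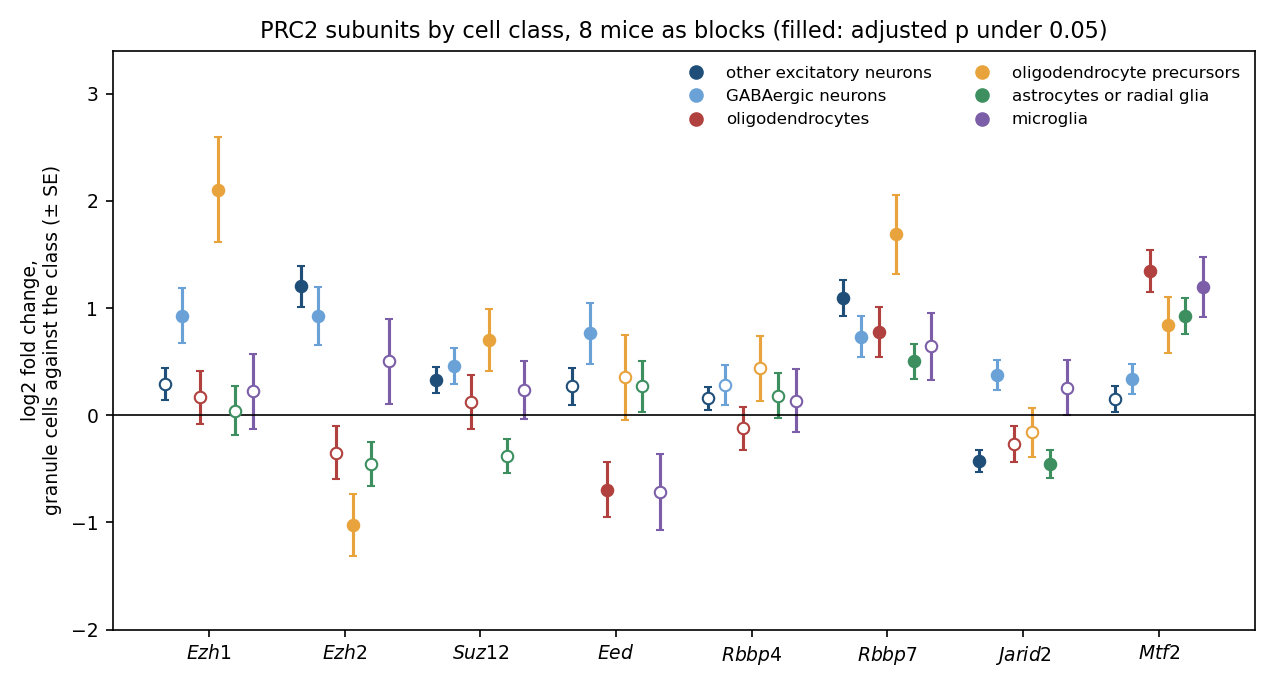
Log2 fold change of GCs against each of 6 classes (points ± SE) with 8 mice as blocks, for the 8 subunits tested in every pair, with filled points for an edgeR adjusted *P* under 0.05. *Ezh2* lies above 0 against both neuron classes and at -1.03 against oligodendrocyte precursors, where *Ezh1* lies at 2.10; *Rbbp7* lies above 0 in all 6.

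*Ezh2* parted GCs from both other neuron classes and from precursors. Its mean level over the 8 mice, in CPM by library size, was 14.2 ± 5.93 in other excitatory neurons, 20.9 ± 10.4 in GABAergic neurons, 34.8 ± 2.42 in GCs, 43.0 ± 37.8 in microglia, 52.2 ± 16.7 for astrocytes or radial glia, 52.7 ± 24.9 for oligodendrocytes and 116 ± 69.8 in oligodendrocyte precursors (SD, n = 8). GCs were higher than other excitatory neurons by a log2 fold change of 1.20 (SE 0.19, edgeR adjusted *P* = 0.000133) and than GABAergic neurons by 0.93 (SE 0.27, adjusted *P* = 0.00454). Against oligodendrocyte precursors the value was -1.03 (SE 0.29, adjusted *P* = 0.00206). GCs and microglia, neighbours in this order, did not differ beyond the spread (0.50, SE 0.40 with TMM, and -0.16 with library sizes), and the other classes were not tested against each other. Against astrocytes or radial glia the value of -0.46 (adjusted *P* = 0.0774) became -0.64 (adjusted *P* = 0.015) with library sizes. The value against GABAergic neurons rested on 28 *Ezh2* UMIs in that class.

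*Ezh1* followed another order. Its mean level was 12.7 ± 11.2 CPM in oligodendrocyte precursors, 23.0 ± 13.4 in GABAergic neurons, 31.9 ± 11.5 in other excitatory neurons, 38.0 ± 16.1 in oligodendrocytes, 40.5 ± 9.38 in GCs, 43.1 ± 25.3 in astrocytes or radial glia and 49.4 ± 36.3 in microglia (SD, n = 8). GCs were above oligodendrocyte precursors (log2 fold change 2.10, SE 0.49, edgeR adjusted *P* = 0.00011) and GABAergic neurons (0.93, SE 0.26, adjusted *P* = 0.00236, on 34 UMIs in that class), and were not separated from the other 4 classes (0.04 to 0.29 with TMM). The precursors held 7 *Ezh1* and 52 *Ezh2* UMIs in 274 nuclei, 0.135 *Ezh1* UMIs per *Ezh2* UMI. The same ratio was 0.798 for astrocytes or radial glia, 0.836 for oligodendrocytes, 1.18 in GCs, 1.21 in GABAergic neurons, 1.58 in microglia and 2.14 in other excitatory neurons. These ratios pool the genotypes, and the order of the 7 classes was not the same in each. Microglia held 4 *Ezh1* and 9 *Ezh2* UMIs in WT mice, a ratio of 0.444, and 26 and 10 in V321L mice, a ratio of 2.60. GCs stood at 0.888 in WT and 1.40 in V321L mice. The precursors, which keep dividing in the adult brain, had the lowest ratio in both genotypes (0.154 and 0.128). These values rested on 2 *Ezh1* UMIs in WT and 5 in V321L mice.

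*Suz12* was higher in GCs than in GABAergic neurons (0.46, edgeR adjusted *P* = 0.0271), oligodendrocyte precursors (0.70, adjusted *P* = 0.0448) and other excitatory neurons (0.33, adjusted *P* = 0.0411). With library sizes the last alone passed among these, and *Suz12* was lower in GCs than in astrocytes or radial glia (-0.55, adjusted *P* = 0.00649, against -0.38 and 0.0619 with TMM). All 3 calls were lost with DESeq2. Against other excitatory neurons the call was lost without any 1 of the WT mice or V321L F1 (0.29 to 0.35). Against GABAergic neurons it was lost without WT F1, V321L M1 or V321L M2 (0.35 to 0.41), and against precursors without WT F2, WT M2, V321L M1 or V321L M2 (0.46 to 0.59). *Eed* was higher in GCs than in GABAergic neurons (0.76, adjusted *P* = 0.0276, on 26 UMIs in that class) and lower than in oligodendrocytes (-0.70, adjusted *P* = 0.0364). The first was lost without WT F2, WT M2, V321L F1, V321L F2 or V321L M1 (0.72 to 0.74) and the second without WT F1, WT M2, V321L F1, V321L F2 or V321L M1 (-0.66 to -0.56). With library sizes the call against GABAergic neurons was lost (0.59, adjusted *P* = 0.105), as with DESeq2 (0.66, adjusted *P* = 0.147), and *Eed* was also lower in GCs than in microglia (-1.35, adjusted *P* = 0.00255). The microglia held 1 *Eed* UMI in WT and 43 in V321L mice. In V321L mice the median was 34.9 CPM in GCs and 123 in microglia. The WT medians ran the other way, at 21.2 and 0 CPM.

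The histone-binding pair differed from each other. *Rbbp7* was higher in GCs than in 5 of the 6 classes, from 0.50 against astrocytes or radial glia (adjusted *P* = 0.0182) to 1.69 against oligodendrocyte precursors (adjusted *P* = 3.32e-05, on 17 UMIs in that class), and 0.64 against microglia did not pass (adjusted *P* = 0.0972). The call against astrocytes or radial glia was lost without WT F1 (0.39) or V321L F1 (0.47), and that against oligodendrocytes (0.78) without V321L F2 (0.54). Both were also lost with library sizes (0.33, adjusted *P* = 0.131, and 0.60, adjusted *P* = 0.0667) and with DESeq2, which left *Rbbp7* higher against 3 classes. The related *Rbbp4* passed against none of the 6 (-0.12 to 0.44), nor with library sizes.

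Among accessory subunits, *Mtf2* was higher in GCs than in every glial class: 1.34 against oligodendrocytes (SE 0.19, edgeR adjusted *P* = 6.96e-06), 1.20 against microglia (SE 0.28, adjusted *P* = 0.000237), 0.93 against astrocytes or radial glia (SE 0.17, adjusted *P* = 8.22e-05) and 0.84 against oligodendrocyte precursors (SE 0.26, adjusted *P* = 0.00459). With library sizes the calls against microglia (0.52, adjusted *P* = 0.134) and precursors (0.32, adjusted *P* = 0.326) were lost, and with DESeq2 that against precursors. Its difference from other excitatory neurons was 0.15 and did not pass. *Jarid2* was lower in GCs than in other excitatory neurons (-0.43, adjusted *P* = 0.00471) and astrocytes or radial glia (-0.46, adjusted *P* = 0.00637), and higher than in GABAergic neurons (0.37, adjusted *P* = 0.0299). With library sizes it was also lower in GCs than in oligodendrocytes (-0.50, adjusted *P* = 0.0225) and precursors (-0.76, adjusted *P* = 0.000525). *Mtf2* was likewise higher than in GABAergic neurons (0.34, adjusted *P* = 0.0489). Both calls against GABAergic neurons were lost with library sizes and with DESeq2, and both turned on single mice: that on *Jarid2* was lost without WT F2, WT M2, V321L F1 or V321L F2 (0.27 to 0.36), and that on *Mtf2* without any 1 of the WT mice, V321L F1 or V321L F2 (0.25 to 0.37). *Phf1* was lower in GCs than in other excitatory neurons (-1.70, adjusted *P* = 0.0198) and GABAergic neurons (-2.73, adjusted *P* = 0.000416), on 39 UMIs in GCs, 20 in other excitatory and 16 in GABAergic neurons. Of these, 4, 2 and 1 came from WT mice. Against astrocytes or radial glia the value of -1.84 (adjusted *P* = 0.0555) became -1.97 (adjusted *P* = 0.0426) with library sizes. *Phf19* had 7 UMIs over all named classes.

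The fourth comparison tested whether the genotype difference itself differed between GCs and another class. Of 51 tests 1 passed. The shares of all genes called were 0.504% for other excitatory neurons, 0.901% for GABAergic neurons, 10.8% for oligodendrocytes, 3.59% for oligodendrocyte precursors, 8.26% for astrocytes or radial glia and 1.81% for microglia. For *Jarid2* the difference of log2 fold changes, GCs minus the class, ran from -0.66 (oligodendrocyte precursors) to -0.10 (oligodendrocytes), with edgeR adjusted *P* between 0.387 and 0.90. No class was shown to differ from GCs in the genotype difference of *Jarid2*.

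The one call was *Eed*, GCs minus microglia, at -3.97 (SE 1.07, edgeR adjusted *P* = 0.0187). It rested on 1 *Eed* UMI among 155823 UMIs of 87 WT microglia, against 43 among 341618 UMIs of 265 V321L microglia. The ratio of those rates was 19.6, with an exact 95% interval of 3.34 to 792 that covers counting error only. With library sizes, by which 2.72% of genes were called, the value was -3.53 (adjusted *P* = 0.0559), and DESeq2 gave no call.

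Promoter accessibility was the second readout on the same nuclei. ATAC counts were summed over the peaks within 1000 bases of each start site in the GCs of each mouse, and 13033 windows were tested. With TMM, 2 windows (0.0153%) were called, and 0 of the 9 subunits with a peak in all 8 libraries. None of the 9 had an unadjusted *P* under 0.05 by edgeR, and DESeq2 called 0 as well. The log2 fold changes ran from -0.13 (*Eed*) to 0.09 (*Mtf2*), with adjusted *P* from 0.822 to 0.990.

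**Figure D5:**
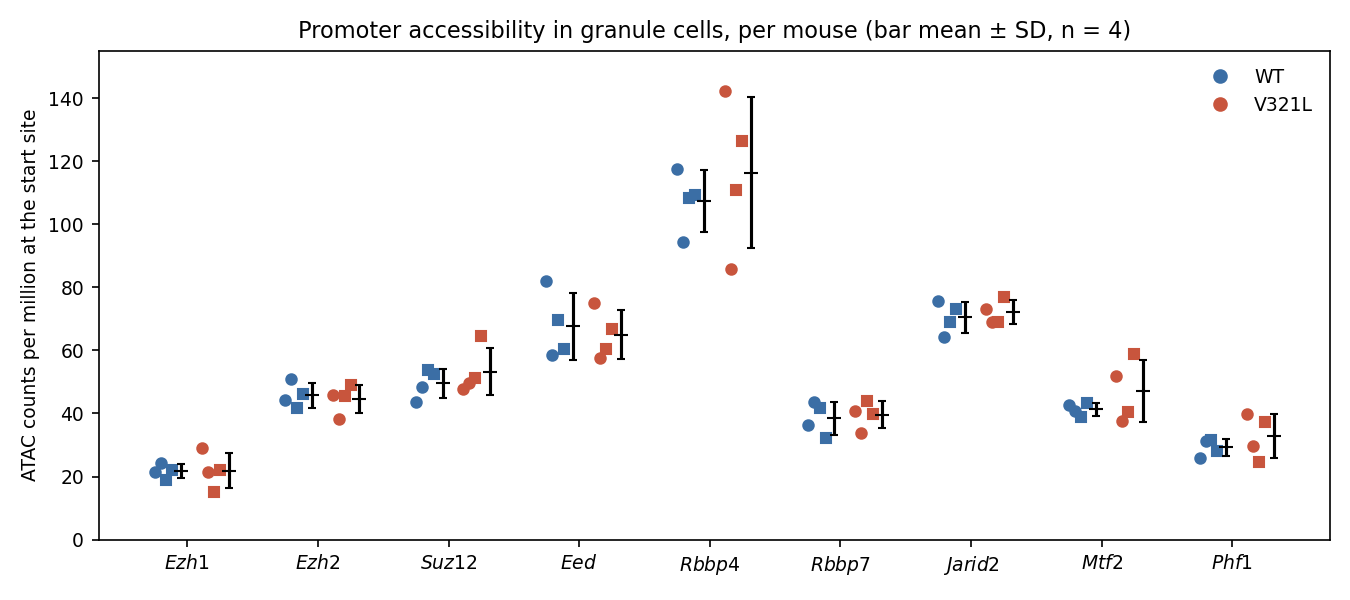
ATAC CPM at the start sites of 9 PRC2 subunits in GCs, with 1 point per mouse (circles female, squares male, blue WT, red V321L) and the mean ± SD of 4 mice, on a linear axis from 0. WT and V321L points overlap for each gene, *Jarid2* at 64.4 to 77.0 over all 8 mice among them.

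At the *Jarid2* start site the GCs of WT mice held 70.5 ± 4.95 ATAC CPM, and those of V321L mice 72.1 ± 3.79 (SD, n = 4 each). At *Ezh2* the values were 45.8 ± 3.94 and 44.7 ± 4.49, at *Suz12* 49.5 ± 4.49 and 53.3 ± 7.56, and at *Mtf2* 41.4 ± 2.03 and 47.3 ± 9.85. *Ezh1* stood at 21.7 ± 2.18 and 21.9 ± 5.64. The genotypes overlapped at every subunit. The 4 promoters printed above were each spanned by a peak in all 8 libraries. *Phf19* had a peak in 5 of 8 libraries and was not tested. Peaks were called per library, 36556 to 130470 of them, so that a window could hold more peak sequence in 1 mouse than in another. A *P* above the threshold does not show that accessibility was equal, and for *Jarid2* the SE of the log2 fold change was 0.10.

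The fifth comparison followed the interest of the study in PRC2 as a repressor of genes of a *Penk*-expressing set of GCs. GCs with at least 1 UMI of *Penk*, which encodes the opioid precursor proenkephalin, numbered 12 to 24 per WT mouse and 45 to 94 per V321L mouse. They were compared with the other GCs of the same mouse. Of 10865 genes 5.93% were called, and 0 of 8 subunits, with 0 at an unadjusted *P* under 0.05 by edgeR and 0 calls by DESeq2. The nearest was *Suz12*, at -0.35 (SE 0.18, unadjusted *P* = 0.0516, adjusted *P* = 0.314). The other subunits ran from -0.39 (*Eed*) to 0.21 (*Ezh1*), so no subunit was shown to differ, and a nucleus with no *Penk* UMI can still express the gene. The *Penk*-expressing GCs held only 20563 to 80064 UMIs per WT mouse. Among them *Ezh1* had no UMI in WT M1 and M2, nor *Rbbp7* in WT F2 and M1. *Eed* had none in WT F2 and M2, and *Suz12* and *Ezh2* had none in WT M2. A *P* above the threshold therefore does not show that levels were equal.

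Related chromatin complexes were set beside PRC2 in the fit of V321L against WT GCs, as counts and medians. The genes of these lists were not set against genes of like length. Over the length bins described above the median ran from 2.35 (shortest genes) to -0.98 (longest), so their fold changes hold any part due to length. The other PRC2 accessory genes that could be tested, 3 of 5, were all called lower (median -0.94), against 31.5% of all genes. *Aebp2*, the usual partner of JARID2, fell from 76.1 ± 4.18 to 39.9 ± 2.37 TMM CPM (-0.94, edgeR adjusted *P* = 3.45e-06), and *Lcorl* from 280 ± 71.3 to 96.5 ± 13.2 (-1.54). All 3 were also lower with library sizes.

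PRC1, the complex that ubiquitinates histone H2A and binds the mark of PRC2, had 19 of 20 genes tested, 8 higher and 6 lower (median 0.27), where 38.9% of all genes were called higher and 31.5% lower. With library sizes the PRC1 counts were 11 and 1, where 54.6% of all genes were called higher and 17.2% lower. The catalytic subunit gene *Ring1* (2.63) and *Cbx8* (2.60) gave the largest rises without overlap, and *Rybp* (-1.18) and *Scmh1* (-0.54) the largest falls. Both rises started from low WT levels, 3.24 ± 1.95 TMM CPM for *Ring1* and 1.44 ± 1.56 for *Cbx8* (SD, n = 4). Of the H3K27 demethylases *Kdm6a* fell (-1.46) and *Kdm6b* did not pass. The PR-DUB complex, which removes ubiquitin from H2A, had 1 gene higher and 3 lower of 4 (median -0.49; 1 and 1 with library sizes), with *Asxl3* at -1.15 and *Asxl2* at -0.55. NuRD, which shares RBBP4 and RBBP7 with PRC2, had 7 of 12 higher and 3 lower (median 0.46; 7 and 1 with library sizes), with *Mbd3* at 2.54, *Chd3* at 1.64, *Mta3* at -0.78 and *Mbd2* at -0.48. *Mbd3* was also low in WT GCs, at 3.22 ± 1.86 TMM CPM. The H3K4 methyltransferases, which oppose Polycomb, had 2 higher and 3 lower of 6 (median -0.16; 3 and 1 with library sizes), with *Kmt2b* at 0.86, *Kmt2c* at -1.29 and *Setd1b* at -0.41. With library sizes *Scmh1*, *Asxl2* and *Mbd2* were not called, and *Setd1b* stood at 0.04.

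Genes that PRC2 may act on were examined in the same way, again without a comparison to genes of like length. The study had chosen 21 genes of *Penk*-expressing GCs with an annotation of SUZ12 binding on these same samples, so their direction is not independent evidence. All 21 were tested, 5 higher and 12 lower (median -0.50), where 38.9% of all genes were called higher and 31.5% lower. With library sizes 8 were higher and 6 lower, where 54.6% and 17.2% of all genes were. The neuronal pentraxin gene *Nptx2* (1.98, from a low 1.93 ± 1.54 to 7.90 ± 1.02 TMM CPM) and *Penk* (1.64, from 7.78 ± 4.26 to 21.9 ± 3.19) rose. *Sorcs3* (-1.34) and *Flrt2* (-1.32) fell. The *Hox* genes, classical targets that PRC2 keeps silent in forebrain, had 39 members in the files and none passed the filter. Their summed UMIs in GCs were 1, 1, 11 and 3 in WT mice and 0, 0, 0 and 2 in V321L mice, where a count of 0 allowed up to 0.548 to 0.839 CPM for the sum. The 11 UMIs came from WT M1, the shallowest library. Of 10 cell cycle genes 3 could be tested, and *Pcna*, needed for DNA replication and repair, rose (1.96) while *Mki67*, a marker of proliferation, fell (-1.36).

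Genes whose levels followed the catalytic pair over the 7 classes were found by Pearson's r of the mean log2(CPM + 1) among 12922 genes, a description over 7 points that share libraries and depth. For *Ezh1* the closest were *Chd4* (0.992), *Clcn7* (0.992), *Neurl4* (0.990), *Cope* (0.989) and *Mtch1* (0.988). For *Ezh2* they were *Immp1l* (0.984), *Kiz* (0.984), *Sumo2* (0.977), *Mpp7* (0.972) and *Itgb8* (0.970). The former shared the dip in oligodendrocyte precursors, *Neurl4* with a mean of 0 there, and the latter shared the peak in that class, *Itgb8* at 7.68 against 3.58 in other excitatory neurons on the log2(CPM + 1) scale.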

How the data were processed

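Frozen, microdissected DG from 4 WT and 4 V321L mice was run as 8 joint RNA and ATAC libraries. The authors made the deposited matrices with Cell Ranger ARC against mm10, per the file headers and the processing notes, which also name Seurat and Signac. The deposited values are counts, RNA UMIs per gene and ATAC counts per peak, unnormalized, for 342506 to 501480 barcodes and 4326426 to 23582057 RNA UMIs per library. Gene and peak positions are as deposited. Nuclei had at least 250 genes, 500 UMIs and 500 ATAC counts, lay under the upper limits in the methods of the study, and passed Scrublet within scanpy 1.11.5. Each nucleus was named by marker genes, and a GC needed at least 3 UMIs from 2 GC markers. UMIs were summed per mouse and class and tested with edgeR 4.0.16 (filterByExpr, TMM, quasi-likelihood test, Benjamini-Hochberg at 0.05), in R 4.3.3. DESeq2 1.42.0 served as an alternative. The test was checked on simulated counts in which a small set of genes was changed, equally in both directions. The simulation held no shift across most genes and no trend with gene length, so it did not examine the choice of scaling. The free RNA profile was the sum of barcodes with 100 UMIs or fewer.

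The subunits are all named. Of each related list, the 2 genes with the largest changes in each direction were named among those called and without overlap between genotypes, together with the 5 genes most like *Ezh1* and *Ezh2* and the markers that check the classes. The members and lists were chosen with earlier results of these data known. The alternatives were other scalings, filters, gates, depths and covariates, single sexes and mice left out. A fit without the gene length trend and one on GCs with at least 2000 UMIs were chosen after the data were seen. Library totals set the precision, and intervals cover counting error only. The differential lists of the study were not used, apart from the 21 SUZ12-annotated genes of *Penk*-expressing GCs that the study had chosen. No genome sequence was used beyond the RefSeq promoter sequences.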

Additional observations from a re-analysis of the deposited data

Results flagged for a closer look

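Among 82 groups of 4 mice, 5 held a mouse far from the other 3, where chance gives about 1 in 20. In V321L GCs, *Ezh2* was 25.0 TMM CPM in F1 and 30.8 to 31.7 in the others, and without F1 the difference from WT was still called. In WT other excitatory neurons, *Rbbp4* was 43.9 in F1 and 51.9 to 52.9 in the others. *Jarid2* was 276 in V321L M2 and 187 to 196 in the other V321L mice in oligodendrocyte precursors, and 212 in V321L M1 and 169 to 174 in the others in astrocytes or radial glia. In that last class *Rbbp4* was 108 in V321L F1 and 67.6 to 71.9 in the others.

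The genotype difference in *Eed* differed between GCs and microglia by -3.97 on the log2 scale (SE 1.07, edgeR adjusted *P* = 0.0187). It rested on 1 *Eed* UMI in WT microglia, and the WT mice held 25629 to 46152 microglial UMIs each.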

How the results depend on the processing

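For V321L against WT GCs the count of 5 called subunits became 2 in males alone and 3 with the gene length trend removed. In the other classes the count of 6 became 10 with library sizes and 1 (of 3 tested) with nuclei thinned to 500 UMIs. For GCs against the other classes 25 became 7 of 48 in WT mice alone (14.7 to 28.1% of all genes called) and 21 of 54 in V321L mice alone (22.3 to 41.4%), and for the difference of genotype effects 1 became 0 with library sizes and with DESeq2. Males, WT mice or V321L mice alone leave fewer mice, and thinning leaves fewer subunits to test. GC nuclei of WT mice also held fewer UMIs than those of V321L mice. The cause was not tested for any of these changes. Directions turned for *Ezh1* with nuclei thinned to 1000 UMIs (-0.0413), for *Ezh2* (0.0523) and *Suz12* (0.00786) with library sizes without ribosomal protein, mitochondrial and nuclear-retained RNAs, for *Jarid2* with free RNA taken off (0.74) and for *Rbbp7* with the length trend removed (-0.23), none of them past the test. For *Jarid2* the subtraction had set WT F1 and WT M1 to 0. The split of calls, 1 higher and 4 lower with TMM, was 4 and 1 with library sizes and 0 and 4 with DESeq2 and with upper quartile scaling, and 3 and 3 with free RNA taken off. Leaving out 1 mouse gave 4 to 6 called subunits in GCs, 4 to 7 in the other classes, 18 to 25 between classes, 0 for ATAC and 0 for *Penk*-expressing GCs. With the replicate label (F1, F2, M1, M2) as a block the counts were 5 in GCs, 4 in the other classes and 0 for ATAC. The deviations of same-labelled mice correlated at 0.0352, 0.282, -0.119 and 0.036, and not every mouse correlated best with its own label. Same-labelled mice share sex. Whether they also shared a day of preparation is not in the sources used here. Of the values for single subunits outside the mice left out, 243 kept direction and side of the threshold, 73 lost and 15 gained a call, and 5 turned. *Phf1* and *Phf19* held under 40 UMIs in each of the 7 classes, as did *Ezh1*, *Ezh2* and *Eed* in GABAergic neurons, *Ezh1*, *Eed* and *Rbbp7* in oligodendrocyte precursors and *Ezh1*, *Ezh2* and *Rbbp7* in microglia, so depth limits these values.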

Other observations

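The classes too small to test gave levels of the subunits without a comparison. Neuroblasts or immature neurons numbered 100 nuclei, 82 of them from V321L mice. They held 48 *Ezh2* UMIs (217 CPM over the class) against 34.9 CPM over the GCs, and 44 of the 48 came from V321L mice. *Suz12* stood at 136 CPM there (30 UMIs), *Rbbp4* at 131 (29 UMIs) and *Mtf2* at 203 (45 UMIs), while *Ezh1* stood at 36.1 (8 UMIs) and *Phf1* and *Phf19* had 0 UMIs. *Ezh2* was at 0 in 2 of the 8 mice in this class. Cajal-Retzius cells, early-born cells of the molecular layer, numbered 126 and held 15 *Ezh2* and 6 *Ezh1* UMIs, and 32 of their 44 *Jarid2* UMIs came from WT mice. Vascular cells numbered 88, with 14 *Ezh1* and 8 *Ezh2* UMIs.

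In the low-count barcodes, the 6 genes with a larger WT to V321L fold than *Jarid2* were *D130009I18Rik* (354), *Afm* (144), *Gm48099* (142), *Filip1l* (77.2), *Gm44686* (66.2) and *Gm20713* (65.1), named after their values were seen. *Gm20713* and *Jarid2* were thus close in this ratio, and no other PRC2 subunit was among the 10 genes with the largest folds.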
